A study of Rattus norvegicus with 4 samples.

Results

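The 8 genes described here encode enzymes of glycolysis and their regulators: hexokinase 1 (Hk1), the liver 6-phosphofructo-2-kinase/fructose-2,6-bisphosphatase (Pfkfb1), aldolase A (Aldoa), phosphoglycerate kinase 1 (Pgk1), enolase 1 (Eno1), the A and B subunits of lactate dehydrogenase (Ldha and Ldhb) and pyruvate dehydrogenase kinase 2 (Pdk2). They were taken by name, as every probe whose platform annotation holds exactly 1 symbol and that symbol is among these 8. This gave 12 of 1936 probes and 8 of the 958 genes with a single symbol. Pfkfb1, Aldoa, Ldha and Ldhb have 2 probes each and the other 4 genes have 1, and no value was missing. Each probe is described by itself.

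In male Sprague-Dawley rats the common bile duct was tied, which dams bile in the liver, and liver RNA taken 1 h later was compared with that of rats 1 h after a sham operation in which the duct was exposed but left untied. Both samples were hybridised together on each of 4 two-colour cDNA arrays, with the ligated sample in Cy5 on arrays 1 and 3 and in Cy3 on arrays 2 and 4. Rats were killed in groups of 3 and their RNA was mixed, and the labels do not say whether the arrays shared an extract, so that p-values reflect how far arrays of mixed RNA differ and not how far animals differ. Rats of both operations were fed freely, and the right lateral lobe was sampled.

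Glycolysis splits glucose into pyruvate, and liver runs it in the fed state and reverses it by gluconeogenesis in the fasted state. Fructose 2,6-bisphosphate, which Pfkfb1 both makes and breaks down, is the signal that switches between the directions: it activates phosphofructokinase and inhibits fructose-1,6-bisphosphatase. Lactate dehydrogenase interconverts pyruvate and lactate, and the pyruvate dehydrogenase kinases restrain the entry of pyruvate into the mitochondrial acetyl-CoA pool. Hk1 and Aldoa are not the main isoforms of hepatocytes, which rely on glucokinase and aldolase B.

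The values are log ratios of the channels, read as ligated over sham, so that a negative value means lower mRNA after ligation. The base of the logarithm is not given in the sources used here, so values stay on the deposited log scale. The direction is likely rather than stated: it rests on the order of channels in the labels, where sham is channel 1 and ligation channel 2 on all 4 arrays, and if the ratio were inverted every sign below would turn. A log ratio holds no expression level, so neither the liver origin of the RNA nor the abundance of one gene against another could be checked.

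The arrays carried a strong dye effect and an effect of position. Arrays 1 to 4 had medians of -0.88, 0.75, -0.73 and 0.87 before centring, and array pairs correlated across probes at r from -0.93 to -0.77 where the dyes were opposite and at 0.86 and 0.94 where they were alike. Each array was therefore centred on its median and each probe was fitted in limma with an operation effect and a dye effect. The values also stepped with the probe number in 16 equal blocks of consecutive numbers. Block 3 had a centred median of -0.87 on array 2, against -0.03, -0.20 and 0.13 on arrays 1, 3 and 4, and a median operation effect of -0.29, against -0.02 over all probes. Pdk2 and 1 of the 2 Ldha probes lie in block 3. Estimates are therefore given on centred values and also after a block-wise dye curve, which removes from each array the smooth relation to the dye effect within each block. As a measure of scale, both probes of Nr0b2, the small heterodimer partner of bile acid feedback, had 1.08 ± 0.08 and 1.18 ± 0.08 on centred values (SE, n = 4 arrays).

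The binding core of hypoxia-inducible factors lies upstream of many glycolytic genes, and it is contained in the CACGTG box read by other glucose-responsive factors. The start regions of Ldha and Pfkfb1, whose probes had the lowest log ratios among the members on centred values (the Ldha probe in block 3), are shown for their contrast in this motif. They are 250 bases before to 50 after the gene start in RefSeq's GRCr8 assembly, Ldha at chr1:106507842-106508141 on the plus strand and Pfkfb1 at chrX:22941926-22942225 on the plus strand, with every match to ACGTG on either strand in capitals.
Ldha: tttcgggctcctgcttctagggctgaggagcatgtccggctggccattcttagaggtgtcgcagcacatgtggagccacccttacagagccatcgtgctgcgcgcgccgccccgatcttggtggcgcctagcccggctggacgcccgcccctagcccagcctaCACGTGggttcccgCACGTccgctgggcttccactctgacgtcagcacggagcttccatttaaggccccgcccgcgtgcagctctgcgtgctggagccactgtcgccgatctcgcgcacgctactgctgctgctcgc
Pfkfb1: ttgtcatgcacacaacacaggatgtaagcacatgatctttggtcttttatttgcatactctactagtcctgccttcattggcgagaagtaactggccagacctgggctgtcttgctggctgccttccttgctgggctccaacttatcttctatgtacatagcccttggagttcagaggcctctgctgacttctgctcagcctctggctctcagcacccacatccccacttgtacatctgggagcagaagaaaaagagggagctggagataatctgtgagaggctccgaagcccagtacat
Ldha held 2 stretches, a palindromic CACGTG that matches on both strands at 87 bases before the start and a CACGT at 73 bases before it, while the Pfkfb1 window held none. A RefSeq window was at hand for 7 of the 8 genes, Pgk1 being the one without. The core was found in at least 1 window of 5 of the 7 (Aldoa, Eno1, Hk1, Ldha and Pdk2) and in 5 of their 11 windows, against 19.3% of all 33469 windows of this length. Such a match is a run of letters and was not measured as a binding site.

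On centred values 3 of the 12 probes passed a Benjamini-Hochberg adjusted p of 0.05 in limma, all lower after ligation: Pfkfb1 probe 1125, Ldha probe 310 and Pdk2 probe 261. Over all probes 4.80% were called lower and 0.93% higher. In block 3, where the Ldha and Pdk2 probes lie, 49.6% of probes were called lower. Following the block-wise dye curve 3 probes again passed but not the same 3: both Pfkfb1 probes were lower and Pgk1 was higher, against 3.46% of all probes called lower and 3.51% called higher. Calls after the curve were more frequent among probes with a high dye effect. Above the 75th percentile of the dye effect 43 probes were called lower and 34 higher after the curve. In the larger group at or below it 24 were called lower and 34 higher. Pfkfb1 probe 1125 and Pgk1 lie above that percentile, with dye effects of 0.70 and 0.83. The shares of all probes are therefore smaller than those among such probes. The median over the 12 probes was -0.11 on centred values and -0.04 after the block-wise dye curve. Over all probes it was -0.02 and 0.00.

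**Figure D1:**
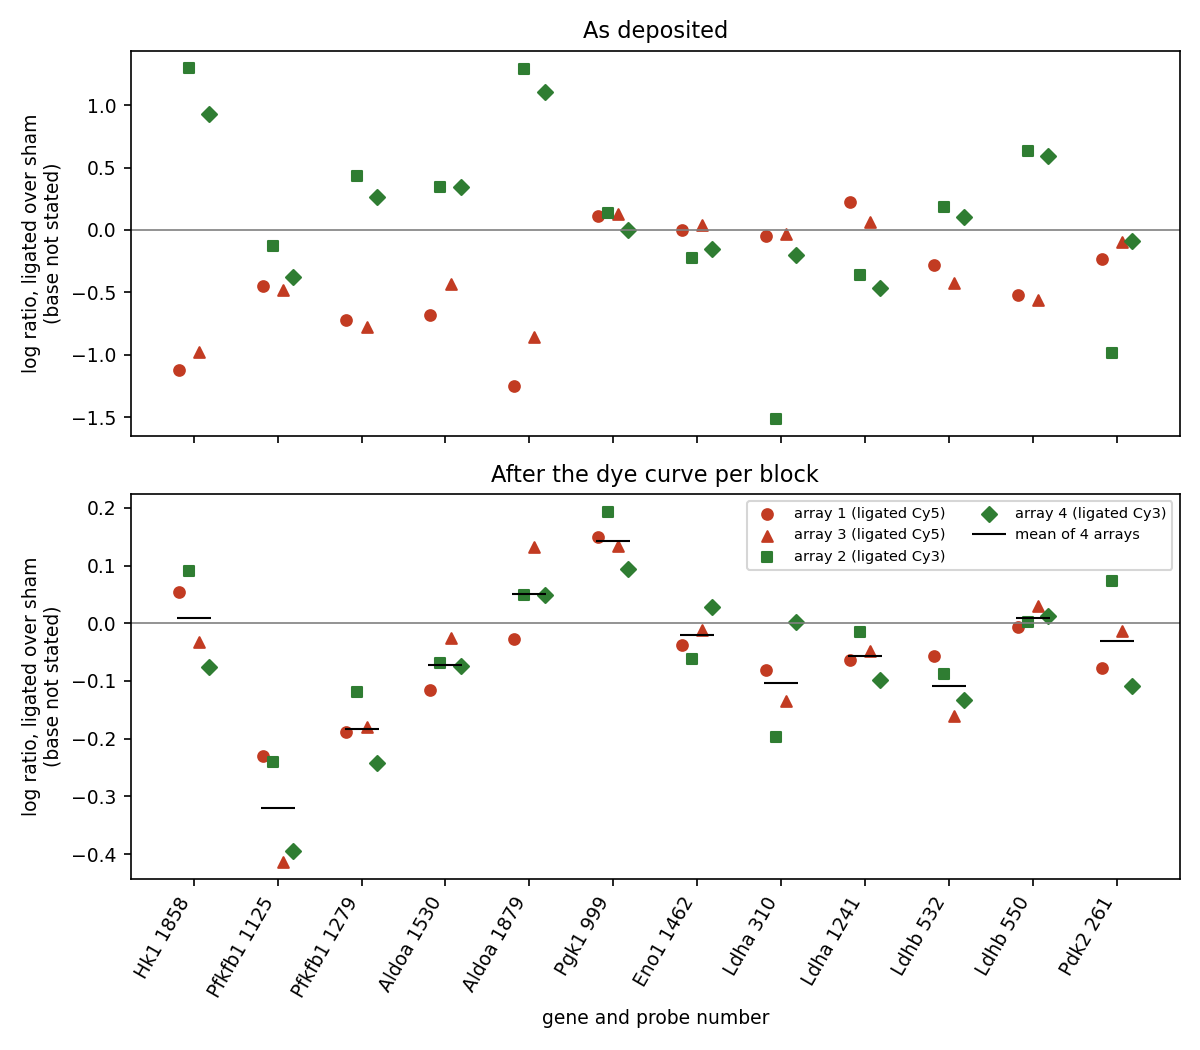
Log ratios of the 12 probes on each array, ligated over sham, as deposited (top) and after the block-wise dye curve (bottom, with the mean of 4 arrays as a bar). Red marks arrays with the ligated sample in Cy5 and green those with it in Cy3; as deposited most probes part by colour, and after the curve all 4 values lie below 0 for 5 probes (both of Pfkfb1, Aldoa 1530, Ldha 1241 and Ldhb 532) and above 0 for Pgk1, against 17.0% and 19.3% of all probes.

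Among the members outside block 3, Pfkfb1 gave the lowest values. Its probe 1125 had deposited log ratios of -0.45, -0.13, -0.48 and -0.37 on arrays 1 to 4. All 4 were below 0, as in 5.94% of all probes. Array medians before centring differed in sign by dye, so such agreement depends also on the probe's dye effect, here 0.70. The operation effect was -0.36 ± 0.09 (SE, n = 4 arrays; 95% interval -0.53 to -0.19; limma adjusted p = 0.00307), which is 0.778-fold if the base is 2, 0.696-fold if it is e and 0.435-fold if it is 10. Corrected by the block-wise dye curve, the 4 values were -0.23, -0.24, -0.41 and -0.39, with an estimate of -0.32 ± 0.04 (limma adjusted p = 0.000901), lower than in all but 0.36% of the probes. The second probe, 1279, had deposited values of -0.72, 0.44, -0.78 and 0.27, which part by dye. Its operation effect of -0.20 ± 0.08 did not pass (limma adjusted p = 0.178), but after the block-wise dye curve it had -0.19, -0.12, -0.18 and -0.24 on the 4 arrays and fell by 0.18 ± 0.04 (limma adjusted p = 0.0115). Both probes were below 0 on 4 of 4 arrays after the curve, as were Aldoa probe 1530, Ldha probe 1241 and Ldhb probe 532, which did not pass. That makes 5 of the 12 member probes, against 17.0% of all probes.

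With the 2 probes of each gene averaged, Pfkfb1 also passed on centred values (-0.28, limma adjusted p = 0.0416), as did Ldha (-0.30, limma adjusted p = 0.0456), whose average includes the probe in block 3. The call of probe 1125 on centred values ended without replicate 1 (-0.41, limma adjusted p = 0.208) and without replicate 3 (-0.32, limma adjusted p = 0.999), fits in which all probes share a larger SE of 0.144, and also without centring (-0.36, limma adjusted p = 0.216). With the block-wise dye curve probe 1125 passed without any 1 of the 4 arrays, at -0.37 to -0.27, and probe 1279 passed in 3 of these 4 fits but not without replicate 4 (-0.15, limma adjusted p = 0.125). These fits kept the curve estimated from all 4 arrays, so an array left out still shaped the values of the others. In bulk RNA, less mRNA per cell and fewer hepatocytes cannot be told apart. All 6 probes of the 5 measured hepatocyte marker genes (of 10 listed) were also below 0 under both. So were 60.28% of all probes on centred values and 48.86% after the block-wise dye curve. The 6 ran from -0.24 to -0.04 on centred values, where none passed, and from -0.17 to -0.03 after the curve. There 1 of the 6 passed, transthyretin (Ttr), which fell by 0.17 ± 0.04 (limma adjusted p = 0.0265). The part of hepatocyte number in the Pfkfb1 result was not tested.

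The probes nearest to Pfkfb1 probe 1125 over the 4 centred values, by Euclidean distance among probes with 1 symbol, were those of Fasn, the fatty acid synthase, Dtymk, the thymidylate kinase, and Cyp7a1, the first enzyme of bile acid synthesis, at distances of 0.202, 0.214 and 0.238. Each of these was itself called lower, with operation effects of -0.35, -0.27 and -0.31. That follows largely from their choice by nearness in the same values. These distances over 4 arrays include each probe's own dye effect, which centring does not remove.

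The other enzymes of the upper pathway gave no call under either processing. Hk1, which phosphorylates glucose in most tissues other than liver, had deposited values of -1.12, 1.30, -0.98 and 0.93. The arrays part fully by dye, and the operation effect was 0.03 ± 0.09 (95% interval -0.14 to 0.20). Aldoa, which cleaves fructose 1,6-bisphosphate, had -0.68, 0.35, -0.44 and 0.35 at probe 1530. At probe 1879 it had -1.25, 1.29, -0.86 and 1.10. Both again part by dye, and the operation effects of -0.11 ± 0.08 and 0.07 ± 0.08 did not pass (limma adjusted p = 0.729 and 0.932). The intervals for Aldoa reached from -0.28 to 0.06 and from -0.10 to 0.24, so that changes of that size are not excluded by these arrays. The block-wise dye curve narrowed the intervals to -0.15 to 0.01 and -0.03 to 0.13, and that of Hk1 to -0.08 to 0.10.

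In the lower pathway, Pgk1, which makes the first ATP of the payoff phase, was the 1 member above 0 on all arrays as deposited, with 0.11, 0.13, 0.13 and 0.00 on arrays 1 to 4, the lowest being 0.0013. Of all probes 0.98% were above 0 on all arrays. Such agreement before centring depends also on the dye effect, which was 0.83 for Pgk1. On centred values its operation effect was 0.09 ± 0.08 and did not pass (limma adjusted p = 0.852). Once the block-wise dye curve was removed, the 4 values were 0.15, 0.19, 0.13 and 0.09 and Pgk1 rose by 0.14 ± 0.04 (95% interval 0.06 to 0.22; limma adjusted p = 0.0356). This call ended without replicate 2 (0.12, limma adjusted p = 0.279) and without replicate 4 (0.17, limma adjusted p = 0.0954). With block medians removed in place of the curve it had 0.07 and did not pass (limma adjusted p = 0.435). Eno1, which makes phosphoenolpyruvate, had deposited values near 0 on every array (-0.0021, -0.23, 0.04 and -0.15). Its operation effect was -0.09 ± 0.08 on centred values and -0.02 ± 0.04 after the block-wise dye curve, and neither passed (limma adjusted p = 0.850 and 0.837). Its interval after the curve was -0.10 to 0.06.

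**Figure D2:**
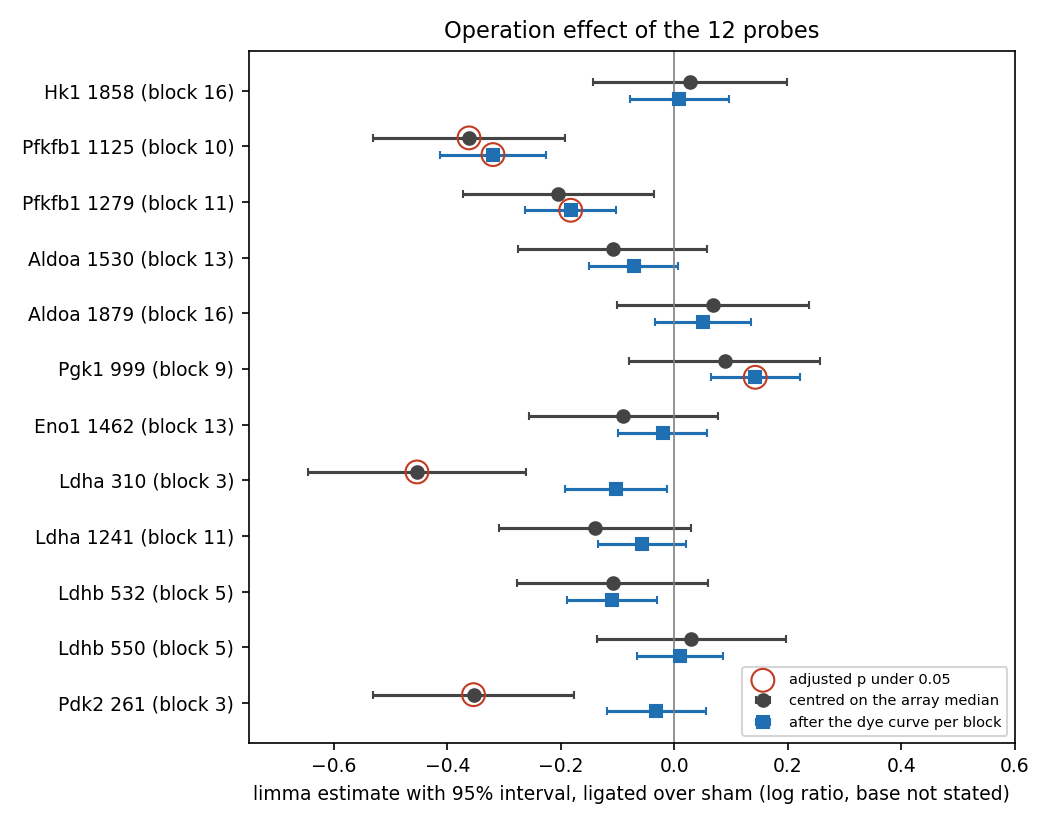
Limma estimates of the operation effect with 95% intervals (ligated over sham, log ratio) for each probe, on centred values (dark circles) and after the block-wise dye curve (blue squares); red rings mark an adjusted p under 0.05. Pfkfb1 probe 1125 passes under both (-0.36 and -0.32), while Ldha probe 310 and Pdk2 pass only on centred values and Pfkfb1 probe 1279 and Pgk1 only after the curve.

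The A subunit of lactate dehydrogenase, the form typical of liver and muscle, gave probes that disagreed. Probe 310, in block 3, had deposited values of -0.05, -1.51, -0.03 and -0.20, with array 2 far below the other 3 arrays. Its operation effect was -0.45 ± 0.10 (limma adjusted p = 0.000831), but the probe's own residual SD of 0.598 was above the 0.056 (Eno1) to 0.242 (Hk1) of the 10 member probes outside block 3. Without replicate 2 it was -0.16 (limma adjusted p = 0.553), and the call also ended without replicate 1 (-0.49, limma adjusted p = 0.0580) and without replicate 3 (-0.42, limma adjusted p = 0.373). Without replicate 4 the estimate was -0.75. With a robust prior the estimate was the same -0.45 but the call ended (limma adjusted p = 0.720). The block-wise dye curve left -0.10 ± 0.04 (limma adjusted p = 0.169). With block medians removed in place of the curve the probe still passed (-0.21, limma adjusted p = 0.0484). Probe 1241, in block 11, had deposited values of 0.22, -0.36, 0.07 and -0.47, and operation effects of -0.14 ± 0.08 on centred values and -0.06 ± 0.04 after the curve (limma adjusted p = 0.527 and 0.417). The difference between the 2 Ldha probes, probe 310 minus probe 1241, was -0.31 on centred values, larger than in 94.6% of the 261 genes with 2 probes, and -0.05 after the curve, where the median absolute difference over such genes was 0.05.

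Both probes of the B subunit, the form typical of heart, lay nearer 0 than both A subunit probes on centred values. After the block-wise dye curve this held for Ldhb probe 550 only. Ldhb probe 532 had deposited values of -0.28, 0.18, -0.43 and 0.10, and probe 550 had -0.52, 0.63, -0.56 and 0.59, both parting by dye. Operation effects on centred values were -0.11 ± 0.08 and 0.03 ± 0.08, and neither passed (limma adjusted p = 0.741 and 0.991). After the block-wise dye curve probe 532 was below 0 on 4 of 4 arrays (-0.06, -0.09, -0.16 and -0.13) with an estimate of -0.11 ± 0.04 that did not pass over all probes (unadjusted p = 0.0117, limma adjusted p = 0.106). Probe 550 had 0.01 ± 0.03 after the curve, with a 95% interval of -0.07 to 0.09.

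Pdk2, a kinase that phosphorylates and inhibits pyruvate dehydrogenase, has a single probe, in block 3. Its deposited values were -0.23, -0.98, -0.09 and -0.09, with array 2 again far below the others. The operation effect of -0.35 ± 0.09 on centred values (limma adjusted p = 0.00562) was -0.16 without replicate 2 (limma adjusted p = 0.543). The call also ended without replicate 1 (-0.36, limma adjusted p = 0.340) and without replicate 3 (-0.35, limma adjusted p = 0.759). Without replicate 4 the estimate was -0.55, and with a robust prior the probe passed (limma adjusted p = 0.00175). Corrected for block and dye, the 4 values scattered around 0 (-0.08, 0.07, -0.01 and -0.11). Their estimate was -0.03 ± 0.04 (95% interval -0.12 to 0.06, limma adjusted p = 0.752). With block medians removed Pdk2 had -0.11 and did not pass (limma adjusted p = 0.271). The 3 probes nearest to Pdk2 over the centred values (Eif2ak1, Sgk1 and Ppp5c) and the 3 nearest to Ldha probe 310 (Ctsb, Sod1 and Dusp1) all lie in block 3 as well. All 6 were called lower on centred values, as their choice by nearness in these values makes likely, and none passed after the curve.

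**Figure D3:**
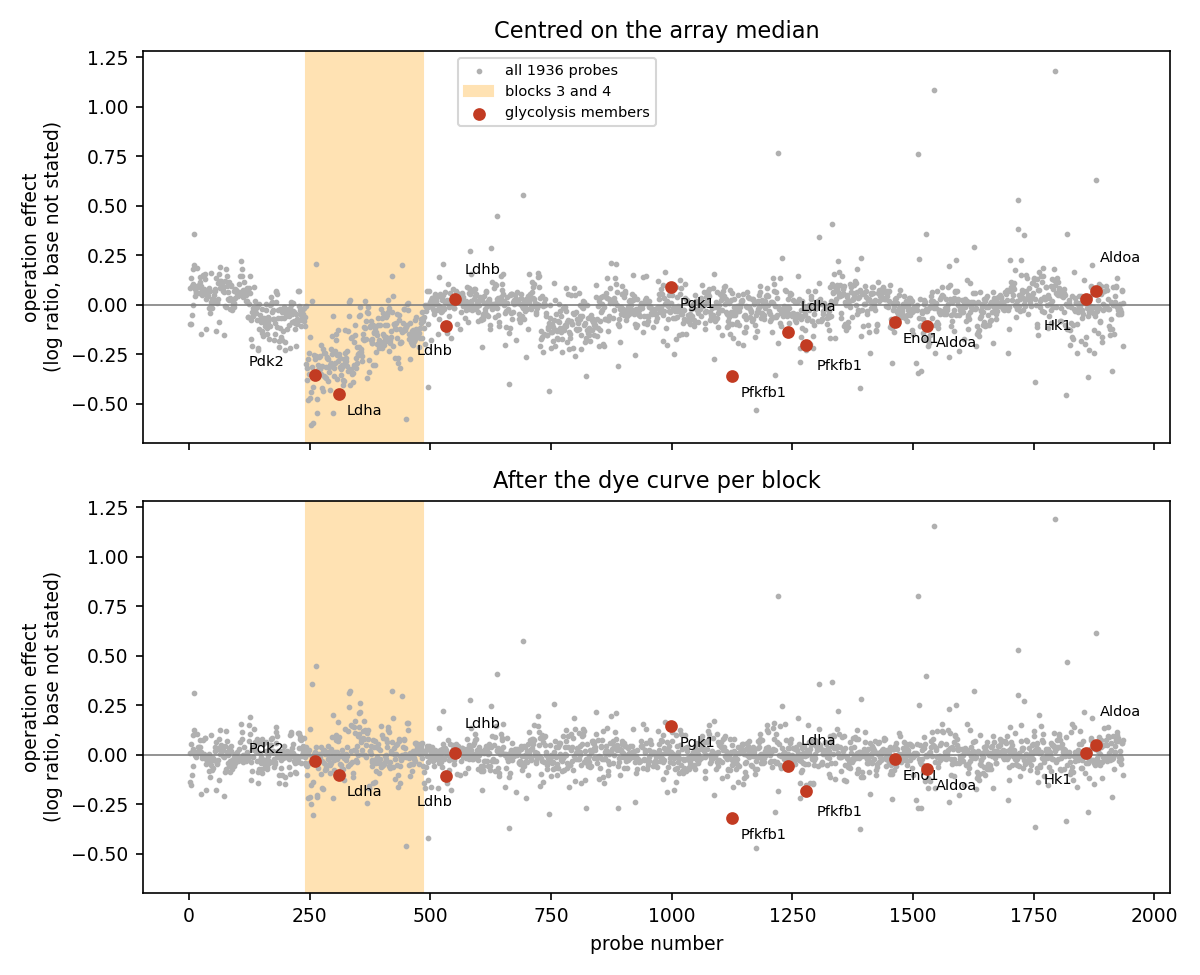
Operation effect (ligated over sham, log ratio) of all 1936 probes against probe number, on centred values (top) and after the block-wise dye curve (bottom), with the members in red and blocks 3 and 4 shaded. Ldha probe 310 and Pdk2 sit inside the lowered block 3, where the median is -0.29, and at -0.10 and -0.03 after the curve; Pfkfb1 lies below its surroundings in both panels.

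The members differed more in their dye effect than in their operation effect, as did all probes (SD 0.55 against 0.13). The dye effect, the part of a centred value that changes sign with the labelling, lay between -0.32 (Aldoa probe 1879) and 1.22 (Ldha probe 310), with a median of 0.63 over the 12 probes, against 0.00 over all probes. It was above the median of all probes for 10 of the 12, the exceptions being Hk1 and Aldoa probe 1879. Both Ldha probes were among the highest on the array, above 99.3% and 98.5% of all probes, as were Pdk2 (95.4%) and Eno1 (90.6%). Operation effects ran lower where the dye effect was high. The probes above its 75th percentile, 6 members among them, had a median operation effect of -0.08 and 10.1% lower calls. In the other probes the median was -0.01, with 3.03% lower calls. Both medians were 0.00 after the curve, as its fit on this same dye effect makes likely. The part of the dye effect in the members' values was not tested beyond this curve.

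**Figure D4:**
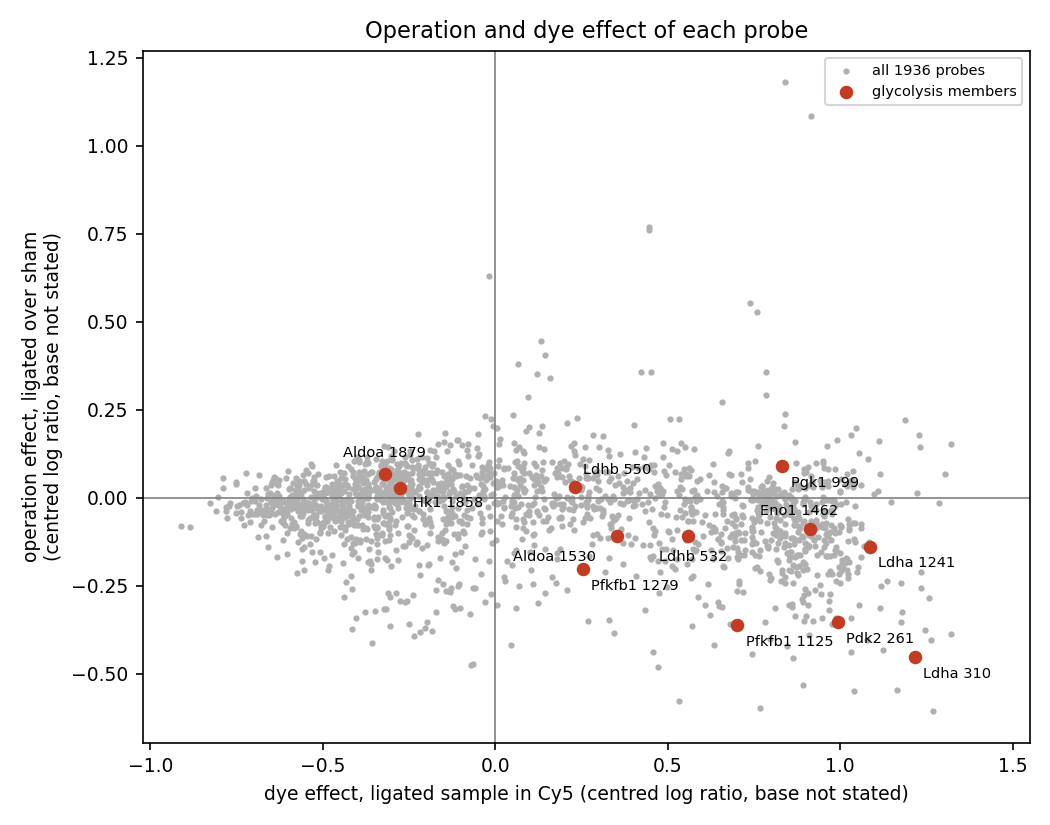
Operation effect against dye effect for all 1936 probes (grey) and the 12 member probes (red), both as centred log ratios. Most members lie to the right of 0 on the dye axis, Ldha probe 310 farthest at 1.22, and Pfkfb1 probe 1125, Pdk2 and Ldha probe 310 lie in the lower part of the cloud on the right, with other probes below them.

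Few other genes of the pathway were on the array. Of 25 further glycolytic genes listed 6 were measured, each with 1 probe, and none passed on centred values. After the block-wise dye curve 1 fell, Pklr, the pyruvate kinase of liver, by 0.16 ± 0.04 (limma adjusted p = 0.0212; -0.25 ± 0.08 and 0.0724 on centred values). The glucokinase regulator Gckr, in block 4, had -0.24 ± 0.09 on centred values and -0.08 ± 0.04 after the curve, and did not pass (limma adjusted p = 0.0936 and 0.278). Phosphofructokinases, the enzymes that fructose 2,6-bisphosphate activates, stayed without a call: Pfkl had -0.02 ± 0.08, Pfkm 0.08 ± 0.08 and Pfkp 0.15 ± 0.08 on centred values. Pgam1 had -0.09 ± 0.08 on centred values and -0.07 ± 0.04 after the curve, and did not pass (limma adjusted p = 0.856 and 0.357). The median of the 6 probes was -0.06, and -0.03 after the curve.

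Among 20 genes that handle pyruvate and lactate 3 were measured, by 7 probes, with a median of 0.10 on centred values and 0.12 after the block-wise dye curve. None passed on centred values. After the curve 2 of the 5 probes of Slc16a1, the monocarboxylate transporter that carries lactate and pyruvate across the cell membrane, rose by 0.16 ± 0.04 and 0.19 ± 0.04 (limma adjusted p = 0.0326 and 0.00900 at probes 1212 and 1262), while the other 3 probes lay between -0.03 and 0.13. Of 7 gluconeogenic genes only Pck1, the cytosolic phosphoenolpyruvate carboxykinase, was measured, at 0.04 ± 0.08 and 0.03 ± 0.03 after the curve (limma adjusted p = 0.991 and 0.749). In the list of 13 genes of glucose entry and storage 5 were measured by 10 probes, and none passed on centred values. After the curve 1 of the 5 probes of the glucose transporter Slc2a4 rose (0.15 ± 0.03 at probe 124, limma adjusted p = 0.0232). The 2 probes of Gys2, the liver glycogen synthase, had -0.14 and -0.15 on centred values without passing (limma adjusted p = 0.492 and 0.465). Of 9 regulators only Vegfa, a target of hypoxia-inducible factors, was measured, at -0.21 ± 0.08, and it had -0.02 ± 0.03 after the curve (limma adjusted p = 0.174 and 0.804).

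Markers of other cell types were few. Osteopontin (Spp1), measured for cholangiocytes, had 0.10, and the 2 S100a9 probes for neutrophils had 0.02 and 0.15. Kdr and Tek of endothelium had -0.12 and -0.05, and none of these 5 probes passed on centred values or after the curve. Of the blood list only platelet factor 4 (Pf4) was measured, with 1 of its 2 probes called lower on centred values, again in block 3 (-0.30), and none after the curve. Among stellate cell markers 1 of 3 probes rose under both, probe 1306 of Col1a1, by 0.34 ± 0.08 on centred values. Probe 1183 of the same gene did not pass, at 0.10 on centred values and 0.10 after the curve (limma adjusted p = 0.812 and 0.126). No macrophage, lymphoid or skeletal muscle marker of the lists was measured, and the part of blood or muscle mRNA in the Aldoa, Ldhb and Hk1 values was not tested.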

How the data were processed

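Each of the 4 arrays gave 1 log ratio per probe, as the authors deposited it. The sources used here do not give the log base, scanner, background correction or normalization. Symbols came from the platform annotation, updated by gene ID through RefSeq's GRCr8 table: 1432 probes had 1 symbol, 19 several and 485 none, and 1429 IDs matched. Without spot intensities, precision is set by having 4 arrays.

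Each array was centred on its median. All 1936 probes were fitted by limma 3.58.1 (lmFit, eBayes; R 4.3.3) with terms for operation and dye, and p-values were adjusted over all probes by Benjamini-Hochberg (threshold 0.05). A probe's own 4 values give 2 degrees of freedom and limma's prior gave 76.2 on centred values and 8.84 after the dye curve, so an SE owes more to the common spread than to the probe. For the block-wise dye curve, each array's centred values were regressed by lowess (span 0.667, 3 iterations) on the probe's dye effect within each of 16 equal blocks of probe numbers, and the residuals were refitted. The curve is estimated from the same 4 arrays, and its own error is not in the SE. The fit on centred values was tested on simulated data with independent noise. The block-wise dye curve was not tested in this way.

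The genes, lists and settings were chosen with earlier results of these data known. Named were all probes of the 8 genes and the 6 further glycolytic genes measured. For the other lists those that passed or had the lowest p were named. So were the 3 probes nearest to each member called on centred values. Leaving out arrays after the dye curve was added later, and the curve was not estimated anew for those fits. Alternatives were no centring, equal scaling, quantile normalization, block medians, dye curves, no dye term, the Cy5 over Cy3 reading, a robust prior, no moderation, averaged probes and leaving out each array or blocks 3 and 4.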

Additional observations from a re-analysis of the deposited data

Results flagged for a closer look

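Of the 12 probes, 2 had 1 deposited value far from the other 3 arrays. For Ldha probe 310 the gap between array 2 (-1.51) and its nearest neighbour took 0.882 of the range of the 4 values, and for Pdk2 probe 261 the gap between array 2 (-0.98) and its nearest neighbour took 0.838, both above Dixon's 95% critical value for 4 samples. Chance flags about 1 in 20 such groups where the 4 values are alike in origin. The array medians differed by dye before centring, so neither that rate nor the critical value strictly holds here. Both probes lie in block 3, whose centred median on array 2 was -0.87.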

How the results depend on the processing

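The count over all probes, 111 on centred values, was 3 without centring, 62 with equal scaling, 12 with quantile normalization, 7 with a dye curve per array, 0 without the dye term and 0 in the one-sample test without moderation (5 and 10 at unadjusted p under 0.05 in limma and in that test), 67 with a robust prior, 1599 in the Cy5 over Cy3 reading and 64 at an adjusted p of 0.01. Leaving out 1 array gave 12 to 241, and 50 to 258 after the block-wise dye curve, where it was 135 with all 4. Of the 12 member probes, 3 passed on centred values, 0 without centring, with quantile normalization, a dye curve per array, no dye term or no moderation (2, 3, 3, 0 and 0 at unadjusted p under 0.05), and 12 in the Cy5 over Cy3 reading. Leaving out 1 array gave 0 to 3, and 1 to 4 after the block-wise dye curve. The causes were not tested, apart from the Cy5 over Cy3 reading, which by construction puts the dye effect in place of the operation effect.

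In that reading signs turned for Hk1 (-0.28), Pfkfb1 (0.70 and 0.26), Aldoa (0.35 and -0.32), Eno1 (0.91), Ldha (1.22 and 1.09), Ldhb probe 532 (0.56) and Pdk2 (0.99). Other turns were of probes without a call. Leaving out 1 array gave -0.0928 to 0.1487 for Hk1, -0.0093 to 0.1443 for Aldoa probe 1879 and -0.0156 to 0.0758 for Ldhb probe 550, and with the block-wise dye curve -0.033 to 0.0508 for Hk1, -0.0432 to 0.0017 for Eno1 and -0.0768 to 0.0137 for Pdk2. Averaging probes gave -0.0206 for Aldoa and -0.0394 for Ldhb. Where an array is left out, its dye orientation has 1 array, assumed to vary like the others. No paired analysis was possible because the 4 arrays form 1 group.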
